A study of Drosophila melanogaster with 3 samples.

Results

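Of the 10 genes of epidermal growth factor receptor (EGFR) and PDGF/VEGF receptor-related (Pvr) signalling chosen by name, 7 were measured, by 7 of 11887 tested probes. The genes were *Egfr*, *spi*, *rho*, *vn*, *aos*, *sty*, *pnt*, *aop*, *Pvr* and *Pvf1*. A probe was taken where the array's annotation named exactly 1 of them. *rho*, *vn* and *pnt* had no such probe and were not analysed here. A further probe annotated to *Pvr* together with other genes was left out. Each of the other 7 genes had a single cDNA clone, so its gene value is the value of that clone.

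The study set wild-type *Drosophila melanogaster* embryos wounded with a laser against embryos left unwounded. RNA of both was hybridised to the same array, with wounded embryos in Cy5 and unwounded embryos in Cy3, on 3 arrays named A, B and C. The sources used here give no embryo age, time after wounding or number of embryos pooled. Nothing in the labels tells whether each array had its own collection of embryos, so the errors and p-values below cover the spread between arrays, which may be technical.

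Signalling through EGFR starts in the sending cell, where the membrane proteases of the Rhomboid family, with Star as an escort, release the ligand Spitz. EGFR on the receiving cell then activates Ras, the kinases Raf and MEK, and ERK. ERK inactivates the repressor Aop (Yan) and activates Pointed, and induced inhibitors such as Argos and Sprouty limit the response. Pvr is the related fly receptor of the PDGF and VEGF kind, with the ligands Pvf1, Pvf2 and Pvf3. In the embryo it guides and sustains haemocytes, the blood cells, and in larvae it takes part in closing epidermal wounds.

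Values are log2 of a ratio of the 2 colours, where 0 is equal signal. Which colour is on top of the ratio is not stated. The titles of the arrays and of the series name the conditions in opposite orders, so a value is called high or low and is not assigned to wounded or unwounded embryos. The test was limma's moderated test of each probe's mean against 0, with Benjamini-Hochberg adjustment over all 11887 probes and a threshold of 0.05. In whole embryos, fewer cells of a type and less RNA per cell cannot be told apart. A ratio also carries no level, so expression of the members or of tissue markers could not be checked in these embryos.

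None of the 7 members passed the test, with limma adjusted p from 0.404 for *Pvf1* to 0.927 for *Pvr*. Over all probes 1.55% passed, so a count of 0 of 7 is near the background. At an unadjusted p under 0.05 in limma the count was also 0 of 7, against 18.4% of all probes. Fitted as gene means over 8247 genes, 0 of 7 members passed and 1.96% of all genes did. The probes past the threshold had means of at least 0.37 or at most -0.37, while the members lay between -0.02 and 0.13. The median of the members was 0.08, and the median of all probes was 0.00.

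**Figure D1:**
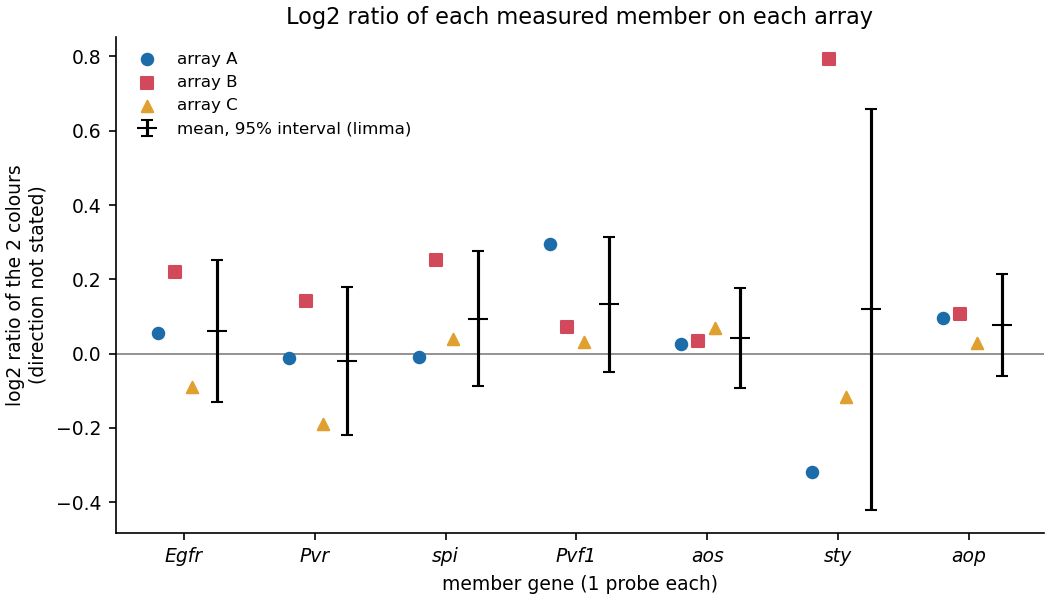
Log2 ratio (vertical axis; 0 is equal signal in both colours, direction not stated) of the 7 measured members on arrays A, B and C, with the mean and its 95% interval from limma. Every interval spans 0, and *sty* has the widest, from -0.42 to 0.66.

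The receptor *Egfr* (CG10079, probe LP11484) had a log2 ratio of 0.06 on A, 0.22 on B and -0.09 on C. The arrays fell on both sides of 0, with array B highest. Its mean was 0.06 ± 0.16 (SD, n = 3; limma adjusted p = 0.719), a ratio of 1.04 with a 95% interval from 0.914 to 1.19. Without array B the mean turned to -0.02 (limma adjusted p = 0.922).

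The other receptor, *Pvr* (CG8222, SD03187), had -0.01 on A, 0.14 on B and -0.19 on C. Array B was again the highest and array C the lowest, as for *Egfr*. *Pvr* averaged -0.02 ± 0.17 (SD, n = 3; limma adjusted p = 0.927), a ratio of 0.987 with a 95% interval from 0.860 to 1.13. It was the only member with a mean below 0, and without array C that mean turned to 0.07 (limma adjusted p = 0.809). Of all tested probes 51.3% had a mean above 0. On array C *Pvr* lay above 11.4% of tested probes, and on array B above 78.3%.

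The ligand gene *spi* (CG10334, RH69567), which encodes the transforming growth factor alpha-like Spitz, had -0.01 on A, 0.25 on B and 0.04 on C. Arrays A and C were close to equal signal, and the mean rested largely on array B. That mean was 0.09 ± 0.14 (SD, n = 3; limma adjusted p = 0.548), a ratio of 1.07 with a 95% interval from 0.941 to 1.21. With array B left out it was 0.01.

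*Pvf1* (CG7103, LD28763), a ligand of Pvr, had the highest mean of the members. Its log2 ratios were 0.29 on A, 0.07 on B and 0.03 on C. All were above 0, and array A stood above the others. The mean was 0.13 ± 0.14 (SD, n = 3; limma adjusted p = 0.404), with a 95% interval from a ratio of 0.966 to one of 1.24. *Pvf1* lay above 92.7% of tested probes on array A but above 63.9% on B and 59.0% on C. Without array A its mean was 0.05.

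The inhibitor genes *aos* and *sty* are both known as transcriptional targets of EGFR signalling, and they differed in how the arrays repeated. *aos* (CG4531, RE21614), which encodes the secreted protein Argos that binds Spitz, had 0.03 on arrays A and B and 0.07 on array C. The 3 values were nearly the same. The mean was 0.04 ± 0.02 (SD, n = 3; limma adjusted p = 0.725), a ratio of 1.03 with a 95% interval from 0.938 to 1.13. Only 3.49% of tested probes had a smaller SD, so the interval for *aos* comes mostly from the spread pooled over probes.

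*sty* (CG1921, RH67029), which encodes Sprouty, an intracellular inhibitor of EGFR and fibroblast growth factor receptor signalling, had -0.32 on A, 0.79 on B and -0.12 on C. Array B went against the other arrays. As deposited ratios these were 0.802, 1.73 and 0.922. *sty* lay above 99.4% of tested probes on array B, but above 5.83% on array A and 21.8% on array C. The mean was 0.12 ± 0.59 (SD, n = 3; limma adjusted p = 0.813), and 99.0% of tested probes had a smaller SD. Its 95% interval ran from a ratio of 0.746 to 1.58, so these arrays bound a change of *sty* far less closely than one of the other members. Without array B the mean was -0.22 (limma adjusted p = 0.230, unadjusted p = 0.0405), and with arrays weighted by their agreement it was -0.04 (limma adjusted p = 0.920). In the limma fit without array B, 2376 of the 11887 tested probes had an unadjusted p under 0.05, and *sty* was the only member among them. No second clone of *sty* was among the tested probes of 1 gene, so the value on array B could not be compared with another clone.

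The transcription factor gene *aop* (CG3166, RE51688) encodes the ETS-domain repressor that ERK inactivates. It had 0.09 on A, 0.11 on B and 0.03 on C. The values lay close together above 0. Their mean was 0.08 ± 0.04 (SD, n = 3; limma adjusted p = 0.521), a ratio of 1.05 with a 95% interval from 0.958 to 1.16. With an array left out the mean ran from 0.06 to 0.10.

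In order of their means the members were *Pvf1*, *sty*, *spi*, *aop*, *Egfr*, *aos* and *Pvr*. All 7 intervals of 95% overlapped, and differences between members were not tested. Apart from *sty*, the intervals together ran from a ratio of 0.860, the lower bound of *Pvr*, to 1.24, the upper bound of *Pvf1*. *Pvf1*, *aos* and *aop* had the same sign on 3 arrays, which is 3 of 7 members, against 41.7% of all probes.

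**Figure D2:**
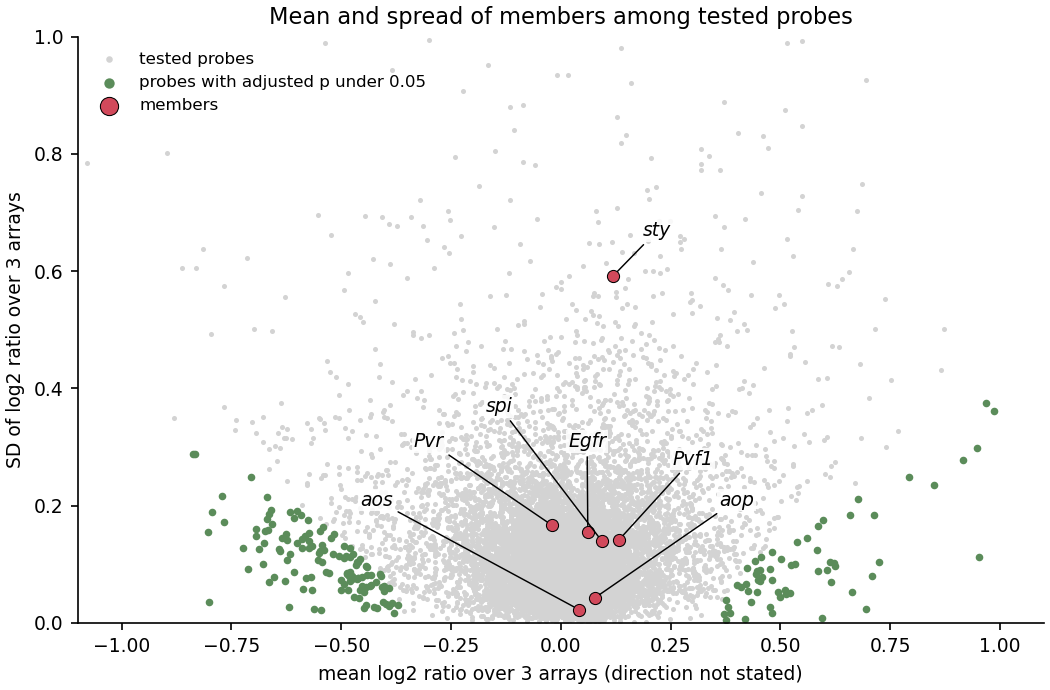
Mean log2 ratio over 3 arrays (horizontal axis, direction not stated) against its SD (vertical axis) for the tested probes, with those of adjusted p under 0.05 and the members marked. The members' means lie between -0.02 and 0.13, away from the marked probes, and *sty* stands apart at an SD of 0.59 (16 tested probes lie outside the axes).

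The members were spread differently over the arrays. On array B all 7 were above 0, from 0.03 for *aos* to 0.79 for *sty*, with a median of 0.14, and 53.7% of all tested probes were above 0 there. On array A 4 of 7 were above 0 (median 0.03), and 50.5% of all probes. On array C 4 of 7 were above 0 (median 0.03), and 49.0% of all probes. *Egfr*, *Pvr*, *spi*, *sty* and *aop* had their highest value on array B, which holds for 39.7% of all tested probes. The value on array B minus the mean of arrays A and C was 0.24 for *Egfr*, *spi* and *Pvr* and 1.01 for *sty*. Between 90.3% and 90.8% of tested probes had a smaller difference than the first 3 genes, and 99.8% had a smaller one than *sty*. For *aos* the difference was -0.01, for *Pvf1* -0.09 and for *aop* 0.05. Across all probes, which are not independent replicates, array B was also the array least like the others, with Pearson r of 0.38 with array A and 0.25 with array C, against 0.48 between arrays A and C.

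**Figure D3:**
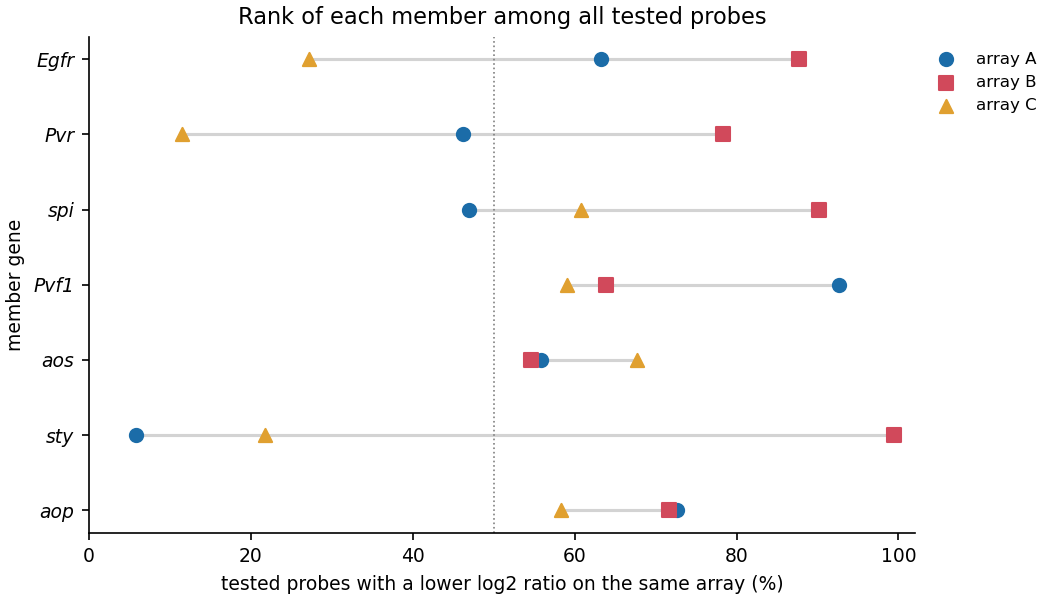
Share of tested probes with a lower log2 ratio on the same array (horizontal axis, percent) for each member on arrays A, B and C. *sty* runs from 5.83% on array A to 99.4% on array B, whereas *aos* stays between 54.6% and 67.6%.

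Probes of different cDNA libraries had different median ratios, and the members came from 5 libraries. Probes past the threshold were also spread unevenly. Of the 61 with a high ratio, 22 were RH clones, from 1064 of 11887 tested probes. Of the 123 with a low ratio, 63 were GH clones, from 2162 tested probes. *spi* and *sty* were clones of the RH library, whose 1064 tested probes had a median of 0.08. Within that library *spi* lay above 52.8% of probes and *sty* above 59.2%. The mean of *spi* was close to the middle of its own library. With each library centred on its own median, *spi* had a mean of 0.02, *sty* one of 0.04 and *Pvr* one of -0.04, and *sty* was no longer second in the order of means. *Pvf1* was a clone of the LD library (median -0.01) and lay above 90.4% of its probes. *aop* and *aos*, of the RE library (median 0.00), lay above 75.9% and 64.7%. *Egfr*, of the LP library (median 0.02), lay above 64.2%, and *Pvr*, of the SD library (median 0.02), above 35.8%. The part of the library in these values was not tested.

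Among all 8247 genes, those nearest to *Pvf1*, the member with the largest mean, were *SdhBL*, *CG14265* and *CG5569*, at Euclidean distances of 0.03, 0.03 and 0.04 over the 3 arrays. In all 49 genes lay within 0.1 of *Pvf1*.

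The rest of both pathways was read from 6 lists by role that hold 83 genes, members included. Of these, 52 genes were measured, by 59 probes. A single gene, *Ets96B*, had a probe past the threshold, with a high ratio, and no gene had one with a low ratio. Over all genes 1.73% had a probe past the threshold. The median gene mean of the lists was 0.04, and 0.03 without the members, against 0.00 for all genes. In limma 5 of the 52 gene means had an unadjusted p under 0.05, as did 1518 of 8247 for all genes.

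**Figure D4:**
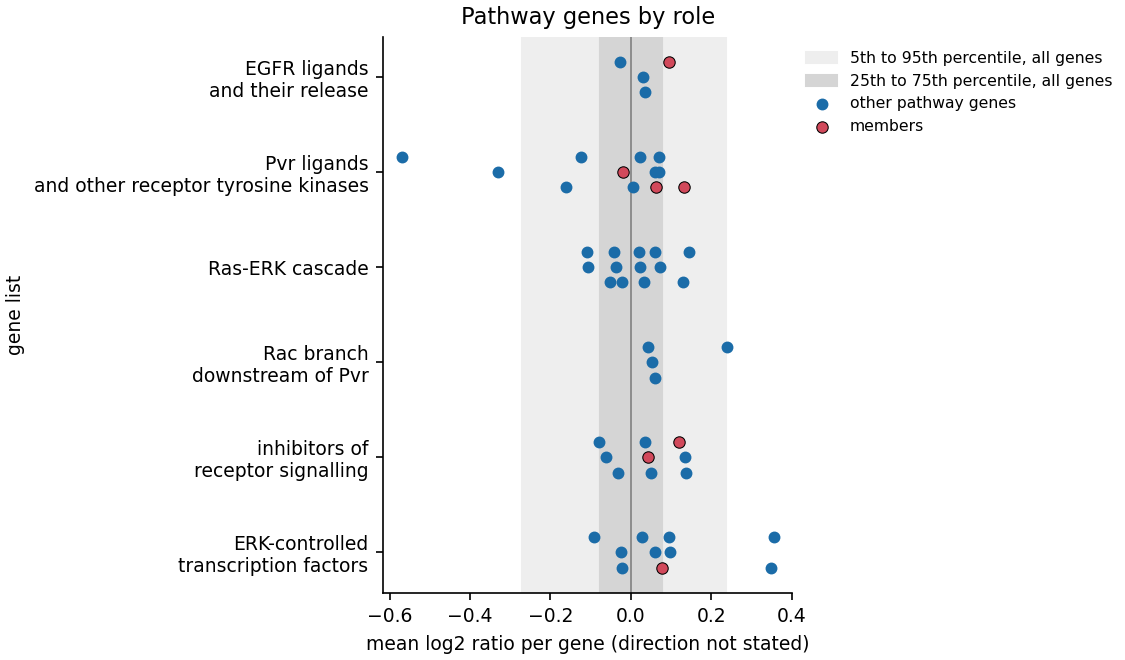
Mean log2 ratio per gene (horizontal axis, direction not stated) for the measured genes of 6 lists by role, with members and other genes marked and shaded bands for the 25th to 75th and the 5th to 95th percentile of all genes. The members lie within the outer band, from -0.27 to 0.24, and the genes beyond it are *jeb* and *sev* at the low end and *cic*, *Ets96B* and *Crk* at the high end.

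For ligands and their release, 4 of 12 listed genes were measured and 0 passed (median 0.03). *S*, which encodes the escort Star, was spotted from 1 clone in 2 preparations. The first spot had 0.05 on A, 0.72 on B and -0.58 on C, and the re-amplified spot had -0.11, 0.15 and -0.02 on the same arrays. The first spot of *S* lay further from 0 than the re-amplified one on arrays B and C. Of the other ligands of Pvr, *Pvf2* had a mean of 0.06 ± 0.10 and *Pvf3* one of -0.12 ± 0.03, low on every array (SD, n = 3; limma adjusted p = 0.676 and 0.304). The interval of *Pvf1* above spans both of these signs.

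Among Pvr ligands and receptor tyrosine kinases, with *Egfr*, *Pvr* and *Pvf1* included, 12 of 17 genes were measured and 0 passed (median 0.01). *htl*, a fibroblast growth factor receptor gene, had 0.13 on A, 0.27 on B and -0.19 on C. *jeb* and *Alk*, named after their values were seen, encode a secreted ligand and its receptor. *jeb* had -0.23, -0.60 and -0.89 in the order A, B, C, a mean of -0.57 ± 0.33 (SD, n = 3; limma adjusted p = 0.0980). *Alk* had -0.19, -0.17 and -0.12, a mean of -0.16 ± 0.04 (SD, n = 3; limma adjusted p = 0.211). Neither passed. A *sev* probe, also named after its values were seen, had a mean of -0.80, while the re-amplified spot of that clone had 0.13.

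In the Ras-ERK cascade 13 of 23 listed genes were measured and 0 passed (median 0.02), with gene means between -0.11 and 0.14. The genes of Ras (*Ras85D*), Raf (*Raf*) and ERK (*rl*) and the kinase gene *Src42A* were among those not measured. These values therefore do not cover Ras, Raf or ERK themselves. The adaptor gene *drk* had -0.02 ± 0.07, the Ras exchange factor gene *Sos* 0.02 ± 0.02, the phosphatase gene *csw* -0.11 ± 0.05 and the MEK gene *Dsor1* -0.04 ± 0.03 (SD, n = 3). The Rac branch downstream of Pvr had 4 of 9 genes measured and 0 past the threshold (median 0.06), with *Rac1*, *Rac2*, *Cdc42* and *mbc* not measured. The measured gene of this branch furthest from 0 was *Crk*, an adaptor gene, at 0.18, 0.24 and 0.30 in the order A, B, C (limma adjusted p = 0.112), named after its values were seen.

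Of inhibitors of receptor signalling, *aos* and *sty* included, 9 of 10 genes were measured and 0 passed (median 0.04). *kek1*, which encodes a transmembrane inhibitor of EGFR and is a target of the pathway, had 0.19 on A, 0.02 on B and 0.19 on C. The nuclear regulator gene *edl*, whose product acts on Aop and Pointed, had 0.15, 0.20 and 0.06 in the order A, B, C. Both genes were above 0 on every array, at means of 0.13 ± 0.09 and 0.14 ± 0.07 (SD, n = 3; limma adjusted p = 0.337 and 0.295). The ERK phosphatase gene *Mkp3* had means of 0.06 and 0.04 on its 2 clones, and the ubiquitin ligase gene *Cbl* had -0.08 ± 0.09.

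Of transcription factors and their partners, 10 of 12 genes were measured, *aop* included, and the median was 0.07. *Ets96B*, which encodes an ETS-domain factor, was high at 0.56 ± 0.14 (SD, n = 3; RH09633; limma adjusted p = 0.0444). Its values on arrays A, B and C were 0.61, 0.68 and 0.40. The re-amplified spot of this clone had 0.45 ± 0.15 (SD, n = 3; limma adjusted p = 0.0627), and a different clone, SD17695, had 0.04 ± 0.09 (SD, n = 3; limma adjusted p = 0.796). The gene mean of 0.35 missed the threshold (limma adjusted p = 0.0502). Leaving out an array gave limma adjusted p of 0.0598 to 0.240 for RH09633, and centring each clone library gave 0.0594. RH09633 belongs to the RH library, which held 22 of the 61 probes past the threshold with a high ratio. The part of the library in this value was not tested. The ETS gene *Ets21C* had 0.09 ± 0.03, the co-repressor gene *gro* -0.03 ± 0.04, and *cic*, which encodes a repressor that ERK relieves, had 0.69, 0.51 and -0.14 in the order A, B, C (limma adjusted p = 0.332 for *cic*).

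Pvr is carried by haemocytes, so their markers were set beside it. Of 12 haemocyte markers 8 were measured and 0 passed, with a median gene mean of 0.03 and means from -0.05 to 0.11. The highest of these, *NimC1*, averaged 3 spots of 1 clone that differed in sign, at 0.12, -0.19 and 0.39. The medians of the 8 markers were 0.00 on A, from -0.28 to 0.10, 0.06 on B, from -0.07 to 0.18, and 0.02 on C, from -0.09 to 0.27. *Pvr* itself had -0.01, 0.14 and -0.19. The part of haemocytes in the values of *Pvr* was not tested. Of 5 epidermis markers 4 were measured and 0 passed (median 0.03, from -0.39 to 0.12). Midline glia, which depend on Spitz, had 1 of 3 markers measured, at 0.01, and tracheal cells had 2 of 3, at -0.13 and -0.03. None of these markers passed the test.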

How the data were processed

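The deposited table holds 12144 probes with 1 value on each of 3 arrays with 2 colours. Per the labels, RNA was extracted with Trizol, cleaned on RNeasy columns and labelled by amino-allyl reverse transcription, and no array had the dyes exchanged, so dye and wounding cannot be told apart. All deposited values are negative, with medians of -1.001, -1.01 and -0.997 on arrays A, B and C. They were read as minus a linear ratio that the authors had normalized, and log2 of the value without its sign was taken. This scale was inferred from the values. The sources used here name no scanner, background correction, normalization or direction of the ratio. Without spot intensities, dim probes could not be filtered. Precision is limited by having 3 arrays.

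Control spots (160) and 97 probes lacking a value were left out. Gene symbols came from the platform annotation, updated by Entrez identifier to Release 6 plus ISO1 MT names, and older names in the lists were matched through synonyms. Of tested probes 9839 had 1 symbol. No positions are printed, since the sources name no build for the clones.

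Each probe was fitted with an intercept in limma 3.58.1 (R 4.3.3), adjusted by Benjamini-Hochberg over all 11887 tested probes. Gene means over all probes with that symbol, re-amplified spots included, were fitted likewise. An exact sign-flip test of 3 arrays cannot go below p = 0.25, so none was run. The fit was tested on simulated data. The members, the lists and the naming rule were chosen with earlier results of these data known. The rule named every member, every listed gene with a probe past the threshold, 22 further listed genes whatever their values (15 measured), and the 3 genes nearest to the member of largest mean. Alternatives covered centring, scaling, quantile normalization, moderation, array weights, the linear ratio, missing and floor values, clone libraries, control spots, the probes tested, the threshold and leaving out each array.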

Additional observations from a re-analysis of the deposited data

How the results depend on the processing

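No member passed the test under any of 15 alternatives. Of the 84 values of 7 members under the 12 alternatives that kept all arrays, 83 kept their sign, and *sty* turned to -0.0435 with array weights. Several of these 12 left every member's mean as in the main fit, so its sign could not change there. They were robust moderation, the looser threshold, control spots kept, floor values missing, values on at least 2 arrays and probes of 1 gene. With an array left out, 18 of 21 values kept their sign: the mean of *Egfr* ran from -0.0178 to 0.14, that of *Pvr* from -0.10 to 0.0656 and that of *sty* from -0.22 to 0.34. Adjusted p of members ran from 0.230 to 0.966 in limma over these alternatives. Calls over all probes numbered 184, against 441 with array weights, 91 when probes of 1 gene were tested, 683 at an adjusted p of 0.10, and 0 on the linear ratio and after centring each clone library (2168 and 2203 probes in limma had an unadjusted p under 0.05). The smallest limma adjusted p was 0.0441 in the main fit, close to the threshold. It was 0.0619 on the linear ratio and 0.0586 with clone libraries centred. Leaving out an array gave 0 to 1 calls (1307, 2376 and 1862 probes at an unadjusted p under 0.05 without A, B and C). In the pathway lists 1 gene had a call, against 2 at an adjusted p of 0.10, and 0 on the linear ratio, with clone libraries centred and with each array left out (0 to 0). Fewer arrays enter the last of these fits, and at an adjusted p of 0.10 only the threshold differs. For the others the cause was not tested. Each ratio sets both conditions against each other on the same array, so the test against 0 is already paired by array, and all arrays form 1 group.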
